A study of Homo sapiens and Mus musculus with 25 samples.

Results

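The immediate early AP-1 and EGR genes were read here in K562, an established human chronic myeloid leukaemia line with erythroid features. The 10 genes were chosen by symbol: FOS, FOSB, FOSL1, FOSL2, JUN, JUNB, JUND, EGR1, ATF3 and IER2. They are 10 of the 19962 protein-coding genes measured. Each antibody against methylated lysine 4 of histone H3 gave 1 list of peaks from internally calibrated ChIP-seq, in which barcoded nucleosome standards of known modification are spiked into the chromatin. There were 8 H3K4me3 lists, 4 H3K4me2 lists and 5 H3K4me1 lists, together with 3 lists that the authors corrected for off-target capture, 1 per methylation state, and 1 list each for H3K27me3 and H3K9me3. The 22 lists come from a series of 25 samples. All were made from the same K562 line, grown in suspension in serum-containing medium and collected without a stated stimulus, and the groups differ in the antibody and its target. Set and amplification differed with the target too. The deposited names place the lists in numbered sets, and 5 of the 8 H3K4me3 lists form AR16-4, which holds neither other target, while 2 stand in AR17 sets and 1 in AR16-5 beside 1 H3K4me2 list and 2 H3K4me1 lists. What a set number stands for is not given in the sources used here. Libraries of 12 amplification cycles were 3 of 8 for H3K4me3, 1 of 4 for H3K4me2 and 0 of 5 for H3K4me1, and the rest had 8 cycles. Over all lists, target and set therefore cannot be told apart for H3K4me3. The labels name no separate cultures, and p-values therefore measure the spread between antibodies.

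Immediate early genes are transcribed within minutes of a growth factor, stress or calcium signal without new protein synthesis. FOS and JUN family proteins are basic leucine zipper (bZIP) factors that pair to form AP-1, which binds TGANTCA and related motifs, while EGR1 is a zinc finger factor that binds GC-rich DNA. Signalling kinases reach several of these genes through serum response factor, which binds CArG boxes, and through CREB and ATF factors, which bind TGACGTCA. H3K4me3 is best known from active and poised promoters, H3K4me1 and H3K4me2 from regions flanking promoters and from enhancers, and H3K27me3 from Polycomb-repressed chromatin.

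The lists differed widely in extent, from 13311 peaks for EpiGentek A-4033-050 (H3K4me3) to 721215 for Abcam ab8580 (H3K4me3), and covered 18.7 to 768.8 Mb among the H3K4me3 antibodies, 110.6 to 1502 Mb among the H3K4me2 antibodies and 723.2 to 1593 Mb among the H3K4me1 antibodies. Reads are not part of a peak list, so depth is unknown and a region without a listed peak is not shown to be unmodified. By their deposited names, the H3K4me3 antibodies Diagenode C15410003 and EpiGentek A-4033-050 belong to AR17 sets and the other 15 H3K4 antibodies to AR16 sets. The H3K27me3 and H3K9me3 lists also carry AR17 names. The series holds inputs labelled AR16 and AR17. The 2 AR17 lists of H3K4me3 stood apart at the genes studied, and several results that rest on them are given with and without them. The erythroid identity of the line was visible at promoters. Of 10 erythroid markers, 8 held a peak in 5 or more of the H3K4me3 lists, against 1 of 6 markers of other blood lineages (CD3D).

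Promoters were windows reaching 1 kb to each side of the start site (TSS) that the annotation marks as canonical, and coverage is the percent of its bases under a peak. In the 6 H3K4me3 lists of the AR16 sets a peak was present at the promoter of all 10 genes, where 51.7 to 75.3% of all promoters held one. Over the 17 antibodies, 156 of 170 combinations of gene and list held a promoter peak. The mean number of genes with a promoter peak was 8.38 ± 3.02 per H3K4me3 list (SD, n = 8), 10 ± 0 per H3K4me2 list (n = 4) and 9.8 ± 0.447 per H3K4me1 list (n = 5). Of all promoters, 33.5 to 75.3% held a peak per H3K4me3 list, 68.0 to 85.1% per H3K4me2 list and 70.7 to 84.2% per H3K4me1 list. All 10 genes held a promoter peak in 5 or more of the 8 H3K4me3 lists, where 52.9% of all protein-coding genes did. All 10 held a peak in each of the 4 H3K4me2 lists, against 59.5% of all genes, and 9 in each of the 5 H3K4me1 lists, against 60.8% of all genes.

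The absences were concentrated in few lists. Diagenode C15410003 held a peak at 4 promoters (FOSB, JUN, JUND and IER2), against 40.2% of all promoters, and EpiGentek A-4033-050 at 3 (FOSB, JUNB and JUND), against 33.5% of all promoters. Only FOSB and JUND, 2 of 10 genes, therefore held a promoter peak in all 8 H3K4me3 lists and in all 17 H3K4 lists, where the shares of all genes were 31.1% and 27.9%. The remaining absence was FOS in the Active Motif 39635 (H3K4me1) list, which held a peak at the other 9 genes and at 70.7% of all promoters. That list held a peak at 9.09% of the 616 promoters on chromosome 14, where FOS lies, against 72.7% of promoters on other chromosomes.

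**Figure D1:**
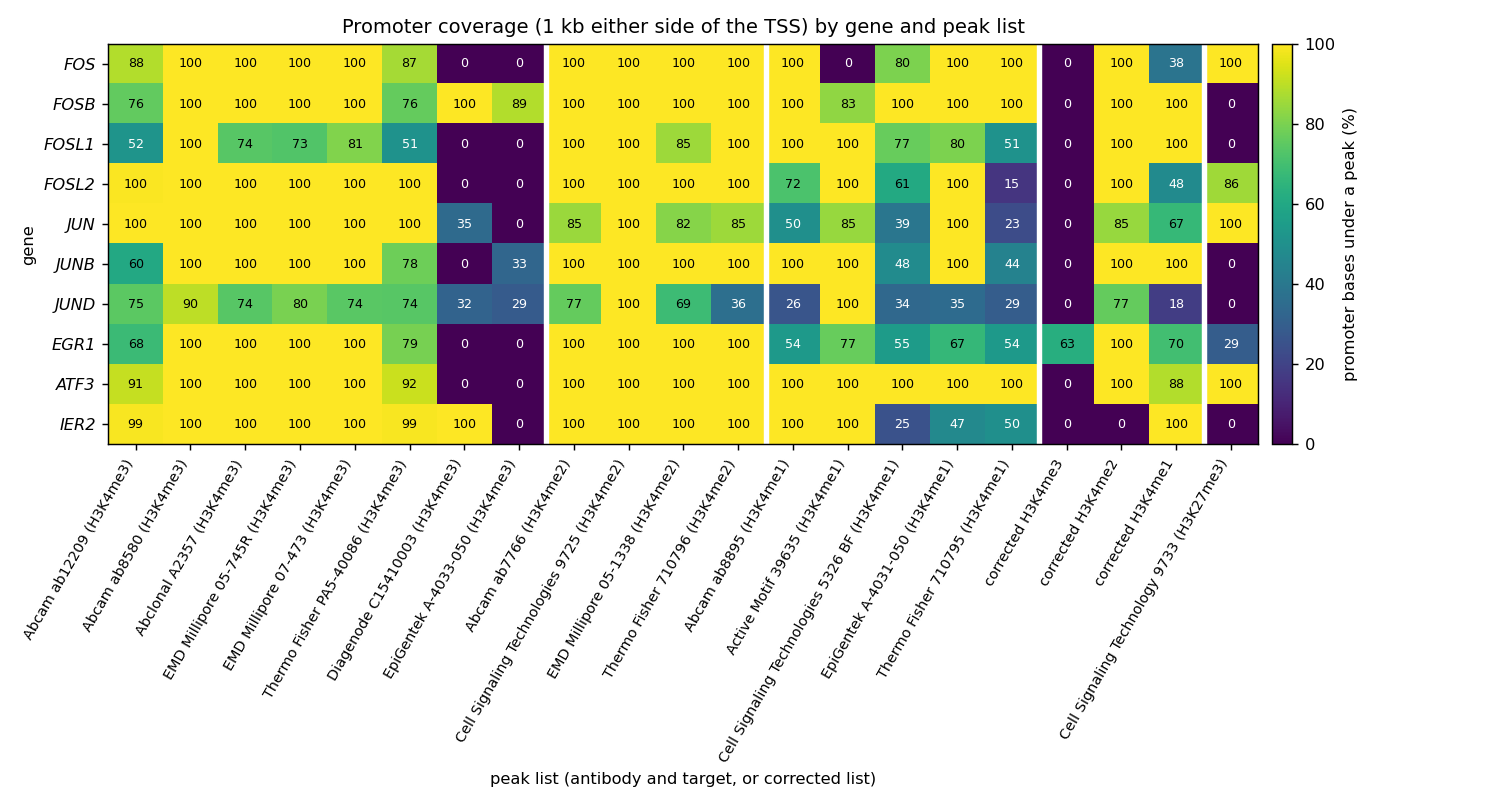
Percent of promoter bases under a peak, with genes in rows and peak lists in columns (H3K4me3, H3K4me2, H3K4me1, the 3 corrected lists and H3K27me3 from left to right). The zeros among the H3K4me3 antibodies all stand in the Diagenode C15410003 and EpiGentek A-4033-050 columns, and FOS has the only zero among the H3K4me2 and H3K4me1 antibodies.

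The FOS family showed the pattern gene by gene. FOS encodes the founding, short-lived FOS subunit (chr14:75278826-75282230, plus strand, GRCh38). Its promoter coverage ranged from 0% to 100% with a median of 94.2% over the 8 H3K4me3 lists, was 100% in each of the 4 H3K4me2 lists, and was 0, 80.3, 100, 100 and 100% in the 5 H3K4me1 lists. The H3K4me3 values were 0 in the 2 AR17 lists and 86.7 to 100% in the 6 AR16 lists, so the groups overlapped at the top of the scale. Over the lists in which the FOS TSS lay under a H3K4me3 peak (6 of 8), the covered segment reached a median of 2.09 kb upstream and 1.08 kb downstream. Under H3K4me1 (4 of 5 lists) it reached 10.5 kb upstream and 13.6 kb downstream.

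FOSB, a close relative of FOS, was the member with the most even coverage. Its promoter was covered at 76.2 to 100%, with a median of 100%, in the 8 H3K4me3 lists, at 100% in all 4 H3K4me2 lists, and at 83.5, 100, 100, 100 and 100% in the 5 H3K4me1 lists. FOSL1, which encodes FRA-1 and lies on the minus strand of chromosome 11 (chr11:65892049-65900573), was covered less by H3K4me3. Its H3K4me3 coverage ranged from 0% to 100% with a median of 62.2%, against 85.2, 100, 100 and 100% in the H3K4me2 lists and 51.2, 76.9, 80.3, 100 and 100% in the H3K4me1 lists. The H3K4me3 segment lay mostly inside the gene, with a median reach of 0.469 kb upstream and 2.23 kb downstream of the TSS in the 6 lists that covered it. There are 6 other coding TSSs in FOSL1 or within 20 kb of its ends, against 0 around FOS, FOSB, FOSL2, JUN and EGR1, so peaks near FOSL1 cannot all be assigned to it.

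FOSL2 encodes FRA-2, and its promoter was covered unevenly by H3K4me1. H3K4me3 coverage was 0% in the 2 AR17 lists and 99.6 to 100% in the 6 AR16 lists, H3K4me2 coverage was 100% in all 4 lists, and H3K4me1 coverage was 15.4, 60.8, 71.6, 100 and 100%. In 2 of 5 H3K4me1 lists the FOSL2 TSS itself lay in an interval without a peak, 0.785 kb wide in one and 1.69 kb wide in the other.

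Start sites between peaks were also seen in the JUN family. JUN encodes the main partner of FOS in AP-1 (chr1:58776845-58784048, minus strand). Its promoter coverage was 0 to 100% with a median of 100% in the 8 H3K4me3 lists, 81.7, 85.0, 85.2 and 100% in the H3K4me2 lists, and 23.1, 39.1, 49.7, 84.6 and 100% in the H3K4me1 lists. All 6 AR16 H3K4me3 lists covered the whole JUN promoter, whereas 1 of 5 H3K4me1 lists did. The JUN TSS lay between peaks in 4 of 5 H3K4me1 lists, in intervals with a median width of 1.14 kb, against 2 of 8 H3K4me3 lists (the AR17 lists) and 1 of 4 H3K4me2 lists.

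JUNB, a JUN family member that in many settings restrains proliferation, had H3K4me3 promoter coverage of 0 to 100% with a median of 88.9%, H3K4me2 coverage of 100% in all 4 lists, and H3K4me1 coverage of 44.3, 48.1, 100, 100 and 100%. The JUNB TSS lay between peaks in 2 of 5 H3K4me1 lists. JUND, the JUN family member that is expressed broadly rather than induced, had the lowest mean coverage of the 10 genes by H3K4me2 and by H3K4me1. Its values were 28.7 to 89.9% with a median of 74.2% for H3K4me3, 36.5, 68.5, 76.5 and 100% for H3K4me2, and 26.3, 29.4, 33.9, 34.8 and 100% for H3K4me1. A peak was nevertheless present at JUND in all 17 lists. The missing bases lay at the start site, which fell in an interval without a peak in 7 of 8 H3K4me3 lists (from a median of 0.417 kb upstream to 0.101 kb downstream of the TSS), 3 of 4 H3K4me2 lists and 4 of 5 H3K4me1 lists.

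EGR1 (chr5:138465479-138469303, plus strand) encodes the zinc finger factor of the set. Its promoter coverage was 0 to 100% with a median of 89.7% in the H3K4me3 lists, 100% in all 4 H3K4me2 lists, and 54.0, 54.1, 54.9, 66.8 and 76.9% in the 5 H3K4me1 lists. No H3K4me1 list covered the whole EGR1 promoter, and none reached the H3K4me2 values. The EGR1 TSS lay between peaks in 3 of 5 H3K4me1 lists. EGR1 was the only gene of the 10 whose H3K4me2 and H3K4me1 values did not overlap, a separation with H3K4me2 higher that 6.19% of all genes showed. The EpiGentek A-4033-050 list held a peak whose near edge lay 1.39 kb upstream of the EGR1 TSS, just outside the promoter window.

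The promoter sequences of EGR1, JUN, JUND and FOS are shown for the motifs in them, some under the peaks and some between them. Those of EGR1, JUN and JUND hold matches to patterns searched here for EGR, serum response, AP-1 or CREB and ATF factors. In these patterns N allows any base, so a match need not be a known site of the factor. That of FOS is shown for TATAAA, a core promoter element. They run from 250 bases before to 50 bases after the RefSeq start site (GRCh38.p14), 5′ to 3′ on the strand of the gene, and the RefSeq and canonical start sites coincide at these 4 genes. They lie at chr5:138465229-138465528 on the plus strand (EGR1), chr1:58783998-58784297 on the minus strand (JUN), chr19:18281573-18281872 on the minus strand (JUND) and chr14:75278578-75278877 on the plus strand (FOS). Capitals mark matches to CArG boxes and GCGNGGGCG in EGR1, TGANNTCA in JUN and JUND (of which TGACGTCA is a special case), and TATAAA in FOS.
EGR1: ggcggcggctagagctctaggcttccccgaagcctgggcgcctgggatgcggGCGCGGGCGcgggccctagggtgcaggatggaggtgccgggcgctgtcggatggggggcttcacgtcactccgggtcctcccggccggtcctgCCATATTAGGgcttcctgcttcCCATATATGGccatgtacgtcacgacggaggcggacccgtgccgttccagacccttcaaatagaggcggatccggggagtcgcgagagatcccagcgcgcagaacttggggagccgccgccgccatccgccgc
JUN: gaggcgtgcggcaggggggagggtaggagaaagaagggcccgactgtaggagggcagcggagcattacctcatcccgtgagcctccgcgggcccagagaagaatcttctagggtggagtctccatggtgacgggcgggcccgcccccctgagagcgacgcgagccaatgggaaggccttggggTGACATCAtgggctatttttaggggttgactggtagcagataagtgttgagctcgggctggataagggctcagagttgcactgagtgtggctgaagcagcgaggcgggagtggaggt
JUND: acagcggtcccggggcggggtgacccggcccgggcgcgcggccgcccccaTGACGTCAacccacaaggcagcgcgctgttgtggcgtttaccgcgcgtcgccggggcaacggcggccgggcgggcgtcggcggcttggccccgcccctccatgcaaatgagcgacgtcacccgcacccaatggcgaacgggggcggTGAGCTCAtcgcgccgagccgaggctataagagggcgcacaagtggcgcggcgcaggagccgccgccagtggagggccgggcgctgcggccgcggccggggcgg
FOS: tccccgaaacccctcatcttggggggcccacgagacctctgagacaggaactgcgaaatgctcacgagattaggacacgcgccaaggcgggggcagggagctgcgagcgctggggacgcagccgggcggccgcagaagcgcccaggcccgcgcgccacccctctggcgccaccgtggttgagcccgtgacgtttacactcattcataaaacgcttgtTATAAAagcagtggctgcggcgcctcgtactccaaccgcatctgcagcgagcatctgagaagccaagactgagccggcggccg

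Positions are counted from the TSS at 0, and both strands were searched for 6 motifs in 21548 RefSeq promoters of this length. Of the 10 genes 9 had an entry, FOSL1 having none, and the 2 entries for ATF3 start away from its canonical TSS and are left out. EGR1 had 2 CArG boxes, at -105 to -96 and -83 to -74, where 1.26% of all promoters held any. The upstream box was wholly under a peak in 6 of 8 H3K4me3 lists, 4 of 4 H3K4me2 lists and 0 of 5 H3K4me1 lists, and the downstream box in 6 of 8, 4 of 4 and 1 of 5. EGR1 also held GCGCGGGCG, a match to the pattern GCGNGGGCG searched for EGR proteins, at -198 to -190 (12.3% of all promoters).

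JUN held TGACATCA, a match to TGANNTCA, at -67 to -60 (9.84% of all promoters). It was under a peak in 6 of 8 H3K4me3 lists, 1 of 4 H3K4me2 lists and 1 of 5 H3K4me1 lists. JUND held TGACGTCA at -200 to -193 (2.29% of all promoters) and a second TGANNTCA match, TGAGCTCA, at -54 to -47. Both JUND matches were under a peak in 0 of 8 H3K4me3 lists, 1 of 4 H3K4me2 lists and 1 of 5 H3K4me1 lists. The JUND sequence had a GC content of 77% and 49 CpG dinucleotides, and 98% of all promoters had fewer.

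FOS held TATAAA at -33 to -28, FOSB at -30 to -25 and JUNB at -31 to -26, where 9.44% of all promoters held this motif anywhere in the window. FOSL2 held TGACTCA, a match to the AP-1 motif TGANTCA, at 4 to 10 (6.17% of all promoters), and it was under a peak in 6 of 8 H3K4me3 lists, 4 of 4 H3K4me2 lists and 3 of 5 H3K4me1 lists. IER2 held 0 of the 6 motifs in this window. A match gives letters only and was not tested as a binding site.

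ATF3, a stress-induced bZIP factor, has a canonical TSS 43427 bases inside the 5′ end of its 55.4 kb gene, and alternative promoters are known at both ends of this stretch. At the canonical TSS, coverage was 0 to 100% with a median of 96.03% for H3K4me3, and 100% in all 4 H3K4me2 and all 5 H3K4me1 lists. At the 5′ TSS, coverage was 0% in 6 of 8 H3K4me3 lists, 32.1% in EMD Millipore 07-473 and 100% in Abcam ab8580. The 4 H3K4me2 lists gave 0, 83.9, 100 and 100% there, and the 5 H3K4me1 lists 100% each. The 5′ TSS difference between H3K4me3 and H3K4me1 was -83.5 percentage points (adjusted p = 0.0321 over all genes read at their 5′ end, exact permutation test). The share of all genes called at the 5′ end is not given here. At the canonical TSS 26.5% of all genes were called with H3K4me3 lower, so such a call is common. The canonical ATF3 promoter was thus covered in 6 of 8 H3K4me3 lists and the 5′ promoter in 2 of 8.

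IER2 encodes a nuclear protein of immediate early kinetics, on chromosome 19 (chr19:13150411-13154911, plus strand). The neighbouring gene STX10 starts 36 bases from the IER2 TSS, so a promoter peak cannot be assigned to either gene alone. IER2 promoter coverage was 0% in EpiGentek A-4033-050, 98.9 to 100% in the other 7 H3K4me3 lists, 100% in the 4 H3K4me2 lists, and 25.1, 47.0, 50.0, 100 and 100% in the 5 H3K4me1 lists. Its H3K4me3 segment was asymmetric, with a median reach of 1.23 kb upstream and 5.73 kb downstream over 7 lists. That segment covered the whole 4.50 kb gene in 7 of 8 lists. The IER2 TSS lay between peaks in 3 of 5 H3K4me1 lists.

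**Figure D2:**
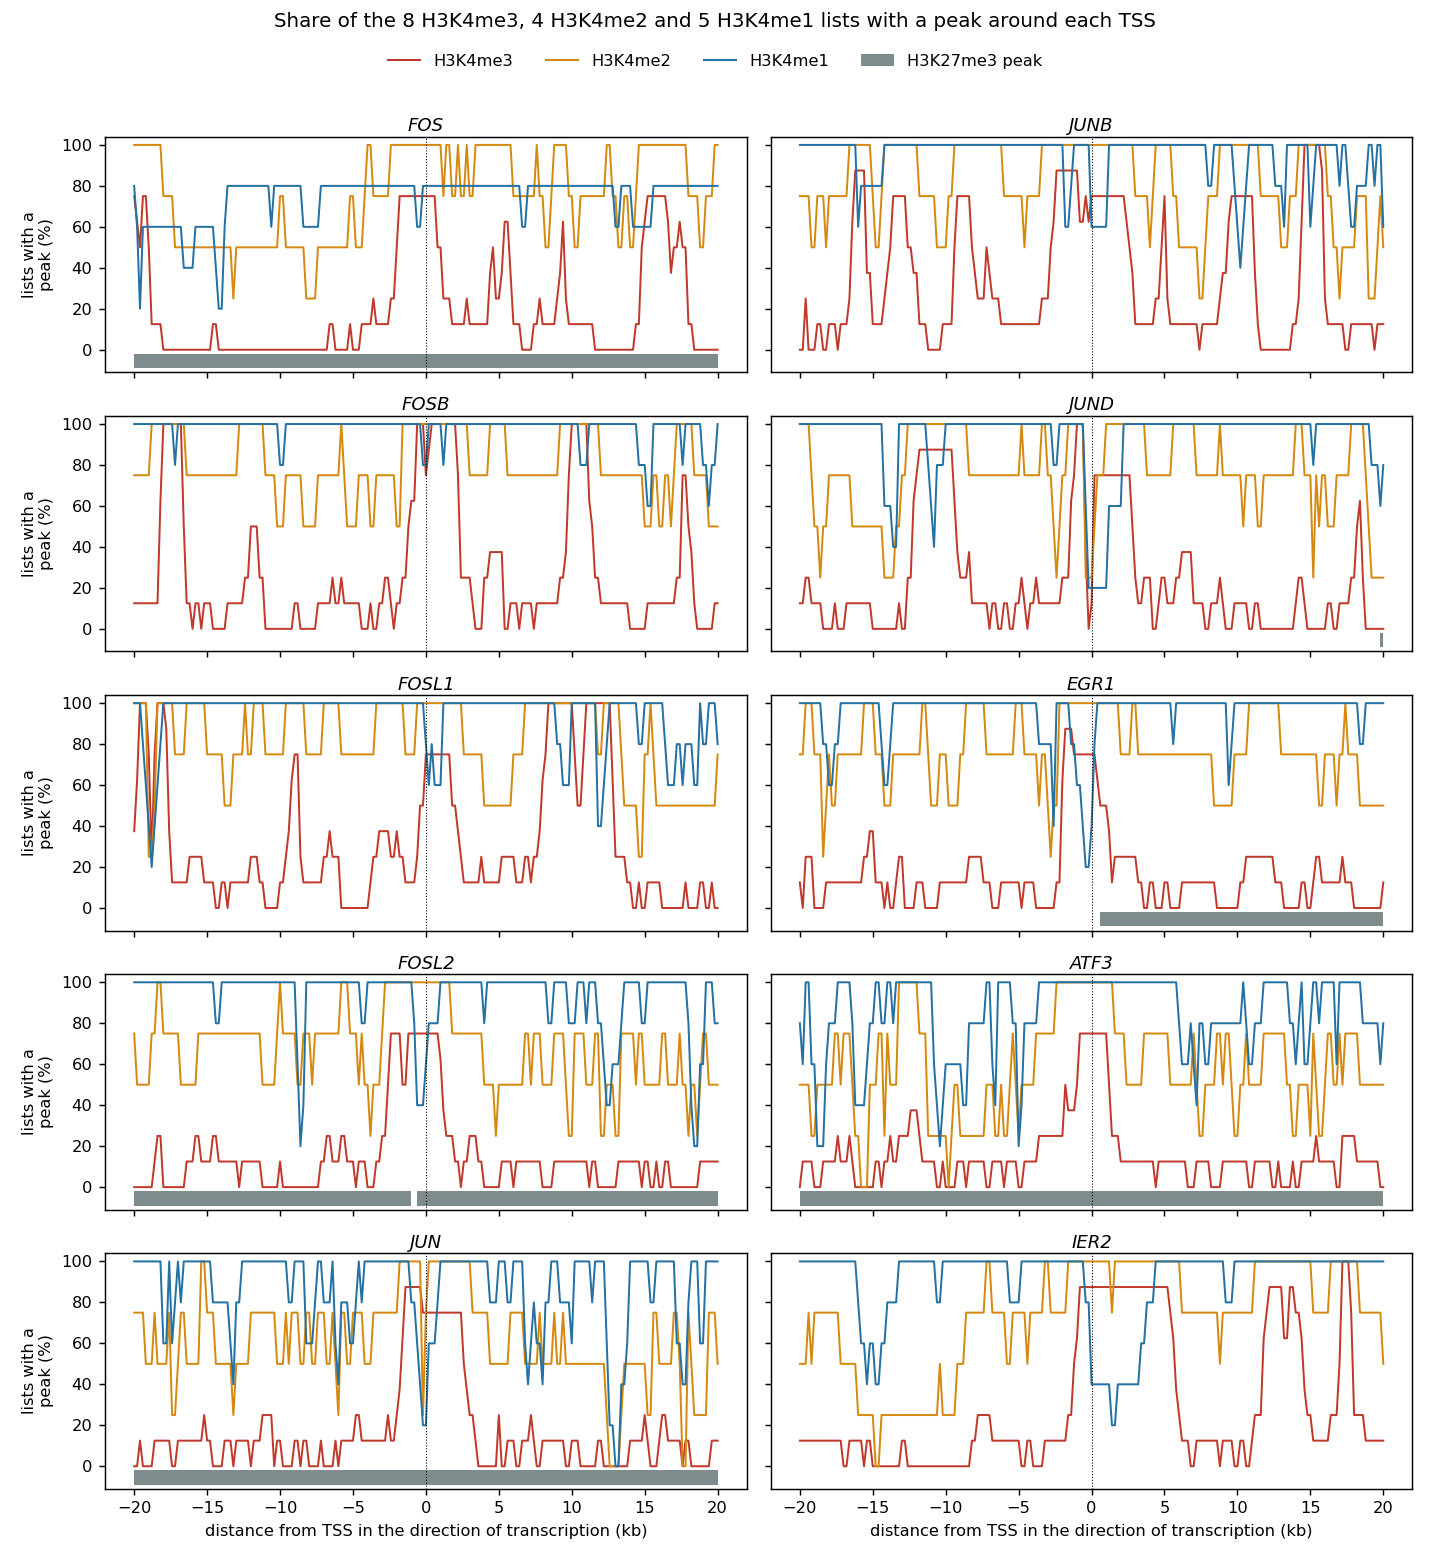
Percent of the 8 H3K4me3, 4 H3K4me2 and 5 H3K4me1 lists with a peak, in steps of 200 bases from 20 kb upstream to 20 kb downstream of each TSS, with positions under the H3K27me3 list as a grey bar under the lines. The H3K4me3 block at the TSS is broad over IER2 and interrupted at JUND, and further H3K4me3 peaks stand in the flanks of several genes. The H3K4me1 line dips at the TSS of JUN and JUND, which lie between peaks in 4 of 5 lists each. It also dips at or just upstream of the TSS of EGR1 and FOSL2.

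The difference in promoter coverage between targets was tested for every protein-coding gene by an exact two-sided permutation test over the antibodies, adjusted by Benjamini-Hochberg over all genes, with a threshold of 0.05. Between H3K4me3 and H3K4me1, 0 of the 10 genes were called, where 37.8% of all genes were (11.3% with H3K4me3 higher and 26.5% with H3K4me3 lower). At an unadjusted p below 0.05 the count was 0 of 10, against 45.5% of all genes. The differences ran from 22.8 percentage points at IER2 (87.2 ± 35.3% for H3K4me3, n = 8, and 64.4 ± 33.9% for H3K4me1, n = 5) to -27.8 points at FOSL1 (53.9 ± 36.7% and 81.7 ± 20.2%). Their median was 0.663 points, beside -7.55 over all genes. The SD between the H3K4me3 antibodies, 10.9 to 46.3 points, exceeded the difference at each of the 10 genes.

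The spread was narrower at 9 of the 10 genes without the AR17 lists. With the 6 AR16 H3K4me3 lists against the 5 H3K4me1 lists, EGR1 averaged 91.3 ± 14.0% and 61.3 ± 10.3%, a difference of 29.9 points that was called (adjusted p = 0.0415, exact permutation test). The lowest EGR1 value for H3K4me3, 68.2%, lay under the highest for H3K4me1, 76.9%. JUN differed by 40.7 points and JUND by 32.9 points in the same comparison, each with an unadjusted exact permutation p of 0.0303 that failed the adjustment (adjusted p = 0.0715). The differences there were 35.2 points at IER2, 30.4 at FOSL2, 19.8 at FOS and 11.2 at JUNB. They were -2.8 at ATF3, -4.63 at FOSB and -9.87 at FOSL1, and none of these was called. Of all genes 9.15% were called with H3K4me3 higher and 11.7% with H3K4me3 lower in this subset. The width of the window mattered too. With 2.5 kb to each side and all lists, H3K4me3 was lower at FOSB (-27.8 points), FOSL1 (-46.9) and ATF3 (-51.9), which were called by the exact permutation test along with 11406 of all genes, and the difference at EGR1 was -28.6 points.

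Against H3K4me2, the H3K4me3 promoter coverage was lower on average at all 10 genes, from -4.44 points at JUND to -42.5 points at FOSL1. None of the 10 genes was called by the exact test, and neither was any other gene (0% of all genes). A call at the smallest p that 8 against 4 antibodies allow would need 8.08% of all genes to reach that p, and 1.64% did. At an unadjusted p below 0.05 the exact permutation test singled out FOSL1 (p = 0.0202) among the members and 25% of all genes. In the AR16 lists alone the mean at JUN was 12.0 points higher and at JUND 7.44 points higher for H3K4me3 than for H3K4me2. The sign at these 2 genes thus changed without the AR17 lists. At the other genes the AR16 difference was -0.075 points at FOSL2, -0.37 at IER2, -2.8 at ATF3 and -4.2 at FOS. It was -7.94 at FOSB, -8.73 at EGR1, -10.3 at JUNB and -24.5 at FOSL1 (unadjusted exact permutation p = 0.0476 at FOSL1). Between H3K4me2 and H3K4me1, 0 of 10 genes and 0% of all genes were called. The unadjusted exact permutation p of EGR1 was 0.0159, with H3K4me2 38.7 points higher (100 ± 0%, n = 4, and 61.3 ± 10.3%, n = 5), and 10.4% of all genes had a p below 0.05. That p is the smallest that 4 against 5 antibodies allow, and a call at it would need 31.75% of all genes to reach it, where 6.29% did, so the count of 0 does not show that the states are alike.

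The same comparisons were read within the numbered sets. In the 3 sets that hold both H3K4me2 and H3K4me1 lists, EGR1 was covered more by H3K4me2 in each, by 45.98, 23.1 and 39.2 points, with a mean of 36.1 points. Its exact permutation p within sets was 0.0741, the smallest that 27 regroupings allow. AR16-5 holds the only H3K4me3 list that shares a set with the other targets, EMD Millipore 05-745R, and allows no test. There H3K4me3 covered EGR1 at 100%, JUND at 79.7% and IER2 at 100%. The 2 H3K4me1 lists of that set covered EGR1 at 54.9 and 66.8%, JUND at 33.9 and 34.8%, and IER2 at 25.1 and 46.98%. At these 3 genes the H3K4me3 promoter value lay above both H3K4me1 values, and at FOSL1 (72.7%) it lay under both.

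Over the gene bodies the states stood further apart. Coverage of the whole gene by H3K4me3 was lower than by H3K4me1 at 6 of the 10 genes after adjustment over all genes, where 79.3% of all genes were called lower. FOSL2 averaged 13.5 ± 22.4% for H3K4me3 (n = 8) and 89.5 ± 9.34% for H3K4me1 (n = 5), a difference of -76.0 points (adjusted p = 0.00435, exact permutation test). ATF3 differed by -67.9 points, EGR1 by -64.9, FOSL1 by -60.5, FOSB by -56.6 and JUN by -55.2 (adjusted exact permutation p of 0.00435 to 0.0146). FOSB, FOSL2 and JUN had no overlap between the 8 H3K4me3 and the 5 H3K4me1 values (35.6% of all genes). FOS missed the threshold at -47.1 points (32.9 ± 32.6% and 80.0 ± 44.7%; adjusted p = 0.0782, exact permutation test), with its Active Motif 39635 value at 0% and the other 4 H3K4me1 values at 100%. It passed without Active Motif 39635 (-67.1 points, adjusted p = 0.0267) and without Abcam ab8580 (-56.7 points, adjusted p = 0.0249), each by the exact permutation test. The FOS body was called in no other comparison that left out 1 antibody.

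At JUNB, JUND and IER2 the mean body coverage by H3K4me3 was at or above that by H3K4me1. JUNB spans 1.83 kb, JUND 1.93 kb and IER2 4.50 kb, beside 3.40 kb at FOS and 3.83 kb at EGR1. The body includes the part of the promoter window that lies inside the gene. The part of gene length in these values was not tested. JUNB body coverage was 0% in the 2 AR17 lists and 100% in the other 6 H3K4me3 lists, against 34.6, 37.8, 100, 100 and 100% in the H3K4me1 lists. JUND body coverage was 0% in the AR17 lists and 94.7 to 100% in the other 6 H3K4me3 lists, against 0, 0, 39.0, 43.0 and 100% in the H3K4me1 lists. IER2 was at 0% in EpiGentek A-4033-050 and at 100% in the other 7 H3K4me3 lists, against 2.44, 16.5, 55.6, 61.0 and 100% in the H3K4me1 lists.

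The mean differences at these genes were 0.519 points at JUNB, 35.7 at JUND and 40.4 at IER2, and none passed the exact permutation test (adjusted p = 1, 0.199 and 0.126). Without EpiGentek A-4033-050 alone IER2 differed by 52.9 points and passed (adjusted p = 0.0278, exact permutation test). The IER2 body was called in no other comparison that left out 1 antibody. Among the AR16 lists alone JUND differed by 59.7 points and IER2 by 52.9 points, with H3K4me3 higher, and both were called (adjusted p = 0.0417 each, exact permutation test). JUNB differed by 25.5 points there and was not called (adjusted p = 0.408, exact permutation test). Of all genes 0.681% were called with H3K4me3 higher in the body in that subset, and 0.446% in the full comparison.

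In the 20 kb either side, H3K4me3 coverage was lower than H3K4me1 coverage at all 10 genes after adjustment, as at 85.9% of all genes. EGR1 had the widest difference. Its flanks were covered at 0.539 to 65.1%, with a median of 2.55%, in the 8 H3K4me3 lists, against 88.8, 97.7, 99.0, 99.1 and 100% in the 5 H3K4me1 lists. The difference in means was -84.6 points (adjusted p = 0.00394, exact permutation test). The narrowest difference was at FOS, with 0 to 40.2% and a median of 12.4% for H3K4me3, against 0, 77.4, 95.8, 97.4 and 98.6% for H3K4me1 (-58.8 points, adjusted p = 0.0178, exact permutation test). At 7 of 10 genes, against 39.4% of all genes, the H3K4me3 and H3K4me1 values did not overlap. The highest H3K4me3 flank value belonged to Abcam ab8580 at all 10 genes, at 40.2 to 83.1%. The median difference was -75.5 points over the 10 genes and -59.5 points over all genes. Within AR16-5 the H3K4me3 value lay under both H3K4me1 values in the flanks of all 10 genes, by -63.7 to -95.04 points from their mean. In the bodies it lay under both at 7 genes (FOS and the 6 called lower), and above both at JUND and IER2.

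**Figure D3:**
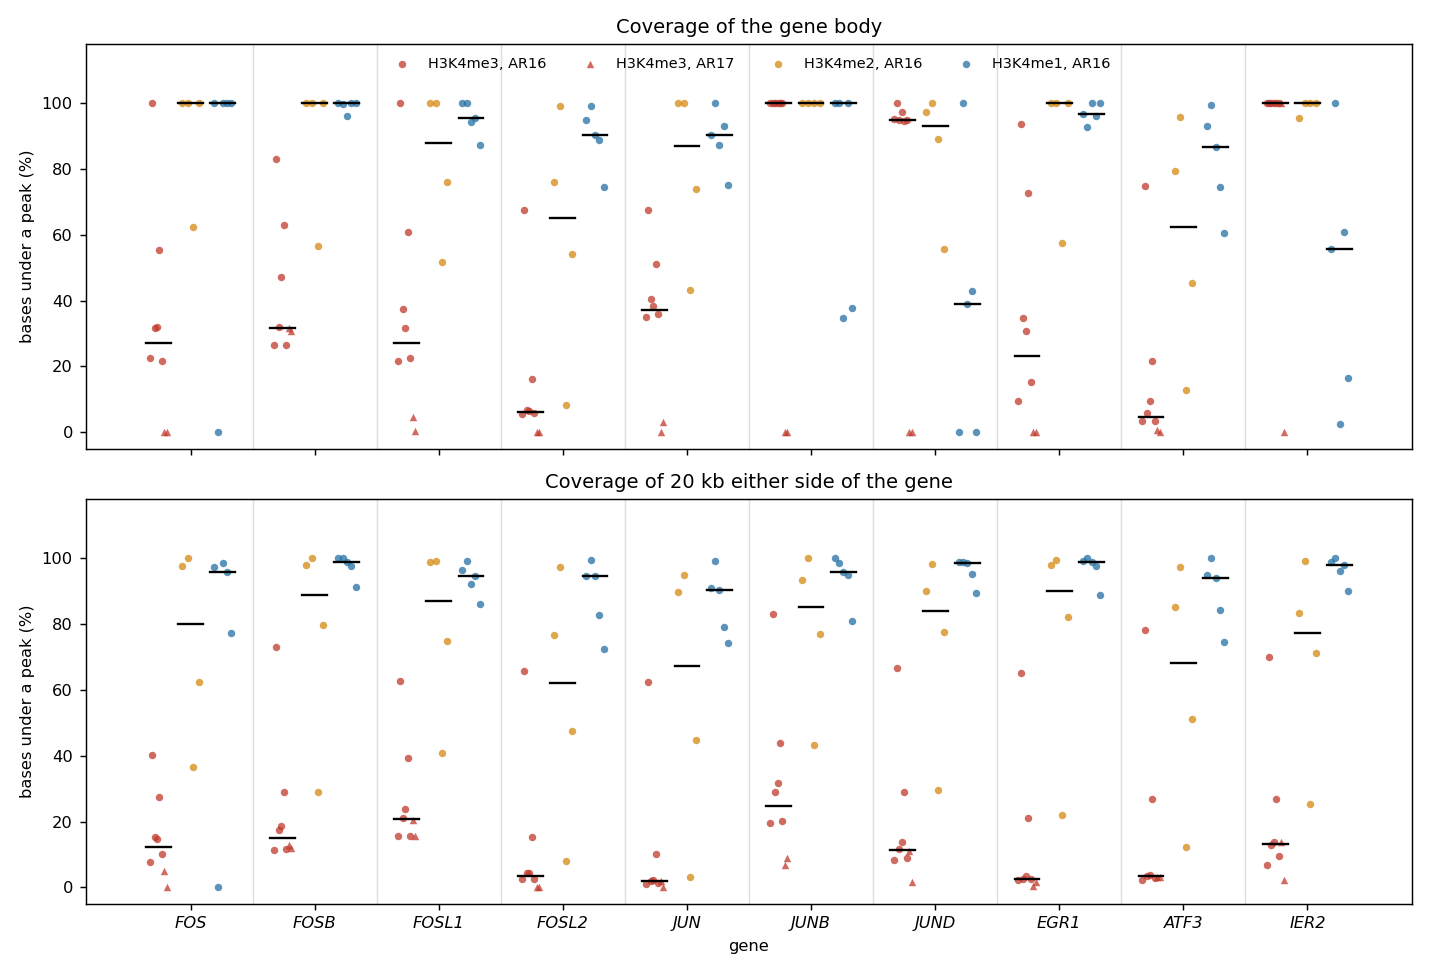
Percent of bases under a peak in the gene body (upper panel) and in 20 kb either side of the gene (lower panel), with 1 point per antibody list, H3K4me3 left, H3K4me2 middle and H3K4me1 right for each gene; triangles are the 2 AR17 lists and short lines are medians. H3K4me1 lies above H3K4me3 in the flanks of every gene by median, while in the bodies of JUND and IER2 the H3K4me3 medians of 94.8% and 100% stand above the H3K4me1 medians of 39.0% and 55.6%.

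Some peaks in the flanks lay away from any coding promoter. The peak with the highest authors' value is given for a few genes, with its distance from the TSS counted in the direction of transcription. In Abcam ab12209 (H3K4me3) JUND had 1 such peak, 2382 bases wide and centred at -10.8 kb (chr19:18291219-18293600), with an authors' value of 26.6. In the EMD Millipore 05-1338 (H3K4me2) list a peak of 4322 bases lay at the same place (chr19:18290028-18294349). FOS had a distal peak in the same H3K4me2 list at chr14:75293325-75296755, centred at 16.2 kb, with an authors' value of 36.4, and the corrected H3K4me2 list held 1 of 4380 bases there with a value of 53.3. The corresponding peak of IER2 lay at 13.1 kb (chr19:13161529-13165505), with a value of 34.7. JUN, EGR1 and FOSL1 had 0 such peaks in the ab12209 list, the 4 distal peaks of FOSL1 all lying at other coding promoters.

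The members were also read in the 3 corrected lists. The authors computed these from the Abcam ab8580, ab12209, ab7766 and ab8895 libraries to remove off-target capture, and each is a single list without replicates. Corrected H3K4me3 was present at the promoter of 1 of the 10 genes, against 18.1% of all promoters, corrected H3K4me2 at 9, against 55.1%, and corrected H3K4me1 at all 10, against 71.4%. The H3K4me3 count is near the share of all promoters. The gene with corrected H3K4me3 was EGR1, where it covered 62.7% of the promoter from 2.44 kb upstream to 0.254 kb downstream of the TSS. Its value of 42.6 ranked at percentile 41.8 among promoters with a corrected H3K4me3 peak. The gene without corrected H3K4me2 was IER2, whose nearest corrected H3K4me2 peak began 1.51 kb downstream of the TSS, although all 4 uncorrected H3K4me2 lists covered its promoter fully.

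Chromosome 14 was sparse in the corrected H3K4me3 list as well, with a peak at 2.60% of promoters, against 18.6% elsewhere, which bears on FOS but not on the other 9 genes. In the corrected H3K4me1 list 6 of the 10 promoters were covered in part. Coverage was 18.1% at JUND, 38.5% at FOS, 48.0% at FOSL2, 67.02% at JUN, 69.8% at EGR1 and 88.4% at ATF3, and 100% at FOSB, FOSL1, JUNB and IER2.

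H3K27me3 split the genes into those inside and those outside its domains. The list covers 2029 Mb, and 73.9% of all promoters carry a peak, so its presence is the common state. Of the 10 genes 5 had a H3K27me3 peak in the promoter. FOS, JUN and ATF3, 3 of 10, were covered at 100%, as 62.8% of all promoters were, FOSL2 at 85.7% and EGR1 at 29.5%, and FOSB, FOSL1, JUNB, JUND and IER2 at 0%. The promoter, body and 20 kb flanks were all free of H3K27me3 at FOSB, FOSL1, JUNB and IER2, that is at 4 of 10 genes against 18% of all genes. At JUND 5.55% of the flanks was covered. In all, 5 genes had a promoter without H3K27me3 and with a peak in 5 or more H3K4me3 lists, as 12.2% of all genes did, and the other 5 carried both, as 40.6% of all genes did.

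The domains and the intervals between them were long. FOS lay in a domain of 192.6 kb, JUN in one of 264.3 kb, ATF3 in one of 269.3 kb and FOSL2 in one of 613.2 kb. These widths end at any gap in the list, however short. At JUN the domain ended 159.87 kb downstream and the next peak began at 160.16 kb. Within 300 kb either side of the TSS, H3K27me3 covered 47.2% at FOS, 99.3% at JUN, 98.8% at ATF3 and 99.95% at FOSL2. At the other genes it covered 21.3% (JUNB) to 93.5% (EGR1). FOSB lay in an interval of 127.3 kb without H3K27me3, FOSL1 in one of 69.0 kb and JUND in one of 288.8 kb. JUNB and IER2, 358.9 kb apart on chromosome 19, shared a single interval of 533.2 kb that holds 34 coding TSSs. The EGR1 TSS stood at the end of an interval of 37.7 kb, and the next H3K27me3 peak began 0.411 kb downstream, so that 89.2% of the EGR1 gene body was covered but the start site was not.

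These states followed chromosomes in part. FOSB, JUNB, JUND and IER2 are all on chromosome 19, where 55.9% of promoters carried H3K27me3, against 75.4% elsewhere. FOS was covered although chromosome 14 had a peak at 20.1% of its promoters, against 75.6% elsewhere. The part of the chromosome in the H3K27me3 state of single genes was not tested. The H3K9me3 list covers 2834 Mb and 98.7% of promoters, all 10 genes at 100%, and does not separate them.

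**Figure D4:**
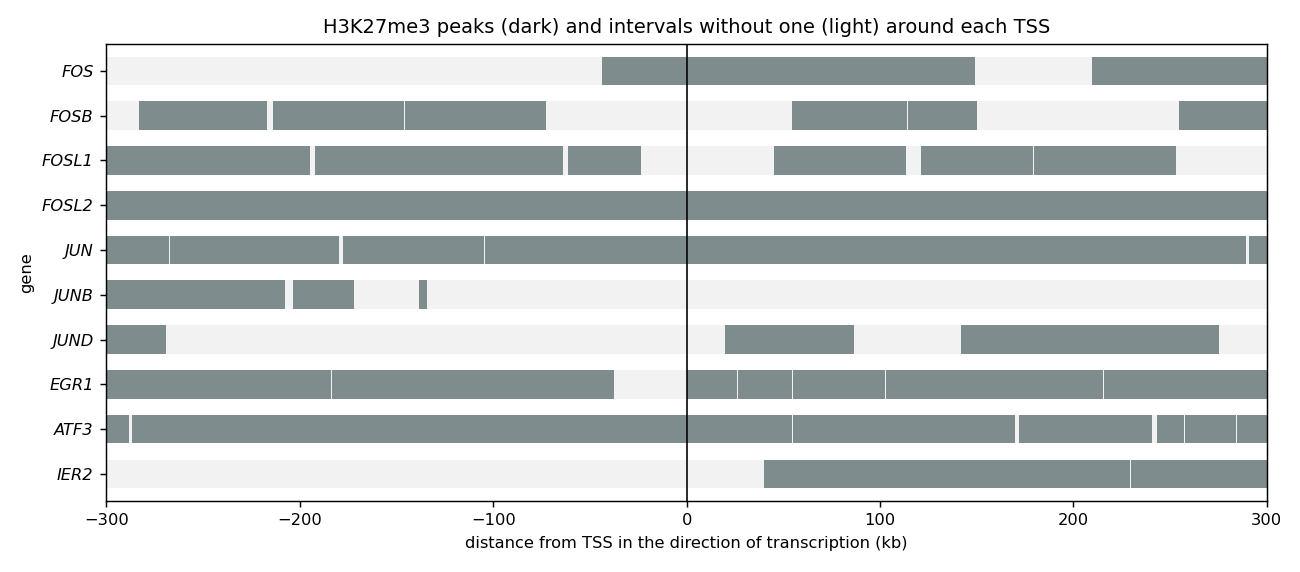
H3K27me3 peaks (dark) and intervals without one (light) from 300 kb upstream to 300 kb downstream of each TSS, in the direction of transcription, 1 row per gene and 1 list. The TSS of FOS, FOSL2, JUN and ATF3 lies in a dark domain, that of EGR1 at the edge of one, and those of FOSB, FOSL1, JUNB, JUND and IER2 in light intervals 69.0 to 533.2 kb wide.

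The authors' value of a peak, read as a modification density that no header names, was ranked within its own list among all promoters with a peak. Over the 5 H3K4me3 lists that carry values, IER2 ranked highest of the 10 genes, at percentile 77.4 to 99.7 with a median of 97.7, and JUND second, with a median of 75.6. FOSL1 and JUNB had medians of 57.3 and 52.2. JUN (36.5), FOSB (31.7), EGR1 (29.5), ATF3 (25.8), FOS (23.8) and FOSL2 (16.9) stood under the middle of the range. The ranks of neighbours in this order overlapped between lists. In the EMD Millipore 07-473 list the same genes ranked higher, for example FOS at percentile 84.8 and FOSL2 at 59.1.

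The H3K4me2 ranks were higher for most of the genes. The median percentile over the 4 H3K4me2 lists was 92.6 for JUNB, 91.5 for JUND, 87.6 for FOS, 84.2 for JUN and 81.3 for FOSL2, and EGR1 was lowest at 43.6. Over the 5 H3K4me1 lists FOSL1 was highest, at percentile 89.8 to 98.2 with a median of 97.0, followed by JUNB at 91.9 and JUND at 83.7, and FOSL2 was lowest at 43.5. Ranks are within a list and do not give a difference in density between states.

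The 5 genes with a H3K27me3 promoter peak had lower H3K4me3 ranks than the 5 without. In Abcam ab12209 their percentiles were 10.9 to 28.8 with a median of 17.0, against 26.1 to 77.4 with a median of 57.3 for the genes without it. In the other 4 valued lists the medians were 25.8 and 41.0 (Abclonal A2357), 36.5 and 61.6 (EMD Millipore 05-745R), 72.6 and 84.3 (EMD Millipore 07-473) and 20.3 and 57.3 (Thermo Fisher PA5-40086). Over all promoters with a peak, the corresponding medians in ab12209 were 49.9 with H3K27me3 (7871 genes) and 50.2 without (2444 genes), and in EMD Millipore 07-473 they were 46.3 and 63.9. The ranges of the 5 and 5 genes overlapped in all of these lists except Thermo Fisher PA5-40086. This split was made after the values were seen, and it was not tested. The H3K27me3 list carries an AR17 name and the 5 valued H3K4me3 lists carry AR16 names.

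**Figure D5:**
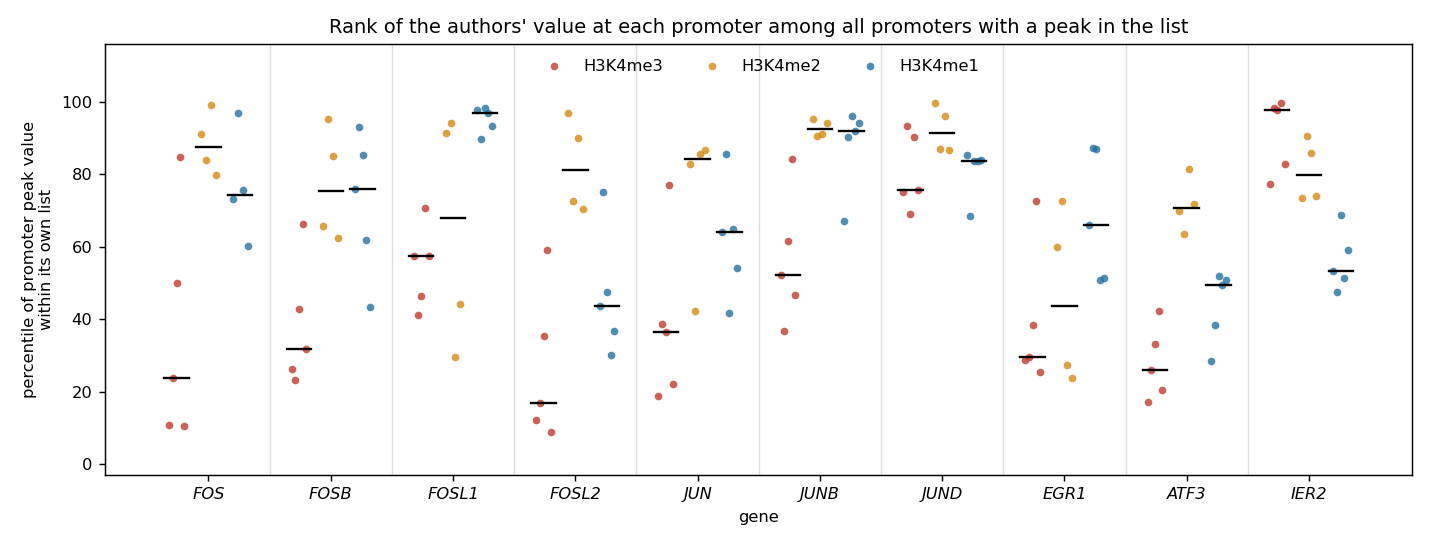
Percentile of the authors' promoter peak value within its own list, 1 point per list with values (5 H3K4me3, 4 H3K4me2 and 5 H3K4me1, from left to right for each gene); short lines are medians. IER2 leads for H3K4me3 with a median of 97.7, and FOSL1 for H3K4me1 with a median of 97.0.

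Genes of the same pathway were read for comparison. Of 17 other immediate early genes, 16 had their promoter marked in 5 or more H3K4me3 lists, as 52.9% of all genes did, and 16 carried H3K27me3, as 73.9% of all genes did. The exception in H3K4me3 was EGR4, with a peak in 3 H3K4me3 lists, while BTG2 and DUSP1 had one in all 8 and KLF4 in 5. Of 9 other bZIP partners of AP-1, 5 reached 5 lists and 7 carried H3K27me3, beside the same 52.9% and 73.9% of all genes. ATF2 and ATF7 had a peak in all 8 H3K4me3 lists, and JDP2 and MAFF in 0 of them with 4 H3K4me1 lists each.

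Of 13 upstream regulators and corepressors, 11 reached 5 lists and 9 carried H3K27me3, beside the same shares of all genes. The ternary complex factor gene ELK4 had a peak in all 8 H3K4me3 lists, ELK1 in 0 and CREB1 in 1. Coverage by H3K4me3 was higher than by H3K4me1 at 4 and lower at 1 of these 13 genes after adjustment over all genes, where 11.3% of all genes were called higher and 26.5% lower. ELK4 was among the higher ones, with a difference of 41.7 points (adjusted p = 0.0116, exact permutation test). The corresponding counts were 0 and 1 of the 17 immediate early genes, and 1 and 3 of the 9 bZIP partners, against the same background.

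By mean absolute difference in promoter coverage over the 17 lists, among the other members and these 39 genes, ATF3 and the orphan receptor gene NR4A3 were the most alike, 2.17 points apart. FOSB was nearest to BTG2 (3.35 points), IER2 to NR4A2 (4.49), FOSL2 to KLF10 (4.63), FOSL1 to CCN1 (5.60), FOS to ATF3 (7.52), JUN to MAFG (8.53), JUNB to CCN1 (8.71) and EGR1 to MRTFA (9.02). JUND stood farthest from its nearest gene, MAPK14, at 18.6 points. The lists share the cell line and, for 15 of 17, the AR16 name, so this likeness is a description.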

How the data were processed

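Peak lists from internally calibrated ChIP-seq of K562 were read as deposited. The label of the H3K27me3 sample does not name the calibrated method, unlike those of the other K562 ChIP samples. Per the submitters' processing notes, reads were handled with Bowtie2, SAMtools, bedtools and MACS2 on GRCh38 (hg38), with no version stated there. Of 22 lists, 17 carry a signal value per peak from the authors, deposited on the scale of the spiked standards. No header names it, 5 values exceed 100, and it was used only to describe and rank peaks within a list. The authors made 1 list per antibody and computed the 3 corrected lists from 4 of the libraries, per the deposited notes. Libraries were amplified for 8 or 12 cycles, per the labels.

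Coverage was the percent of bases under a peak in each promoter, gene body and flank (20 kb either side, without promoter and gene) of 19962 protein-coding genes (GENCODE 44, chromosomes 1 to 22 and X). Targets were compared over antibodies by exact two-sided permutation tests, adjusted by Benjamini-Hochberg over all genes (Python 3.11.15, NumPy 2.4.6, pandas 2.3.3, SciPy 1.17.1), and the code was tested on simulated data, in which the comparison of H3K4me2 with H3K4me1 could call no gene. Plots were drawn with Matplotlib 3.10.9. Promoter sequences came from RefSeq (GRCh38.p14). The most alike gene was the one with the smallest mean absolute difference, and genes named from a list were those with the most and fewest lists, of which some are not reported here. Members and gene lists were chosen with earlier results of these data known. Alternatives covered other windows, start sites, overlaps, peak values and subsets of antibodies. Other samples of the series were not used here.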

Additional observations from a re-analysis of the deposited data

Results flagged for a closer look

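A sample was singled out where its gap to the nearest other antibody of the same target was a large share of the range of that target (Dixon's critical value). This held for 25 values in 90 groups of 4 to 8 antibodies. The share of about 1 in 20 by chance holds for normal, independent values. Coverage is bounded and the groups share antibodies, so the count cannot be set against that share. At 8 of the 25 all other antibodies of the target were at 100%, the ceiling of coverage, so that any lower value stands apart.

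Abcam ab8580 was the high value among the 8 H3K4me3 antibodies in the flanks of FOSB (73.15%), FOSL2 (65.75%), JUN (62.4%), JUND (66.69%), EGR1 (65.13%), ATF3 (78.29%) and IER2 (69.95%), and in the bodies of FOSL2 (67.42%) and ATF3 (74.97%). EpiGentek A-4033-050 was the low one at IER2, with 0% in the promoter and 0% in the body.

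EMD Millipore 05-1338 was the low value among the 4 H3K4me2 antibodies in the bodies of FOS (62.29%), FOSB (56.49%) and EGR1 (57.65%) and in the promoter of FOSL1 (85.21%). Abcam ab7766 was the low one in the body of IER2 (95.4%), where the other 3 were at 100%.

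Active Motif 39635 stood apart among the 5 H3K4me1 antibodies at FOS, with 0% in the promoter, 0% in the body and 0% in the flanks, at the FOSB promoter (83.46%) and, as the high value, at the JUND promoter (100%). Thermo Fisher 710795 was the low one in the flanks of FOSB (91.42%), JUNB (80.87%) and EGR1 (88.82%), and Cell Signaling Technologies 5326 in the body of FOSB (96.12%).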

How the results depend on the processing

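The 6 lower bodies and the 10 lower flanks were called in each comparison without 1 antibody (6 to 7 and 10 members). When presence of a peak replaced coverage, calls fell to 0 members and 0 genes for bodies and flanks and 0 genes for promoters; the cause was not tested. With 8-cycle libraries alone 0 genes passed at promoters, the FOSL1 body (adjusted p = 0.0659, exact permutation test) and FOS flank (0.0606) lost their calls, and promoter differences turned to 1.039 points at FOSB, -9.555 at FOSL2 and -1.319 at EGR1.

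Promoter differences between H3K4me3 and H3K4me1, none of them called, also changed sign. By presence they were -25 points at FOSL2, -12.5 at JUN, -25 at EGR1 and -12.5 at IER2, and with peaks at or above the median value -19.56 at FOSL2, -4.978 at JUN and -2.792 at EGR1. With 0.5 kb either side FOSB gave 0.3696 points. With 2.5 kb FOSL2 gave -31.33, JUN -14.57, JUND -7.495 and EGR1 -28.61, and 3 members and 11406 genes were called. The AR16 lists gave 19.77 at FOS and 11.23 at JUNB, with 1 member and 4169 genes called. The 5′ TSS gave 1 member, ATF3, where 37.8% of all genes were called at the canonical TSS. Leaving out 1 antibody gave 3468 to 8619 genes, and differences of -23.2 to 6.083 at FOS, -8.152 to 16.09 at FOSL2 and -15.6 to 3.146 at JUNB.

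Against H3K4me2, JUN gave 1.449 points with 0.5 kb, 12.03 with the AR16 lists and -11.6 to 2.686 without 1 antibody, and JUND 7.442 with the AR16 lists and -15.74 to 5.433. Between H3K4me2 and H3K4me1, FOSB gave -4.149 with 2.5 kb. JUNB body differences were -25 by presence, -14.48 at 8 cycles, -3.052 without Abcam ab8580, the H3K4me3 antibody over 200 Mb and -9.44 to 11.23 without 1 antibody; IER2 gave -12.5 by presence, and the FOS flank 7.5. Genes with a promoter peak per H3K4me2 list averaged 9.75 with 0.5 of the window covered and 9.75 at the 5′ TSS, and per H3K4me1 list 7.2 with 0.5 of the window and 9.2 with 0.5 kb. The cause of these changes was not tested.

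No paired analysis was possible because the replicate numbers follow accession order and pair no antibodies. Within the numbered AR16 sets, an alternative chosen after seeing the data, 0 genes passed between H3K4me2 and H3K4me1, as with all lists, and no sign turned. The AR16 subset leaves the comparison of H3K4me2 with H3K4me1 as it is, and the 5′ TSS leaves gene bodies as they are. Depth is unknown, so no interval for a single list is given.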
